A study of Homo sapiens with 8 samples.

Results

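Annexins are proteins that bind acidic membrane lipids, phosphatidylserine above all, when calcium rises. Their conserved core docks on the membrane, and the short or long N-terminal tail that precedes it decides which partner each annexin carries there, often a small calcium-binding protein of the S100 or ALG-2 type. Members take part in membrane repair, vesicle traffic, plasminogen activation at the cell surface and the damping of inflammation, and annexin A5 is the usual probe for phosphatidylserine on dying cells.

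The 8 annexin genes described are ANXA1, ANXA2, ANXA3, ANXA4, ANXA5, ANXA6, ANXA7 and ANXA11, 8 of 18417 genes with a signal. Each was taken from the transcript cluster (the array's probe set for a gene) whose only platform symbol was that gene, and each member had 1 such cluster. The set was chosen by measured values of these arrays, since ANXA1 had been put forward for its difference between the lines, so that difference is described without a test.

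Gene expression was measured on 8 one-colour Affymetrix arrays from established myeloma cells, with 1 array per condition and no replicate. U266/s is the parental line and U266/LR7 its melphalan-resistant derivative; melphalan is a DNA-alkylating drug. Within each line, 1 array came from cells with a negative control oligonucleotide and no drug (called the control below), 1 from cells given 100 µM melphalan, 1 from cells transfected with 100 nM inhibitors of miR-221/222, and 1 from cells given both; RNA was taken 12 h after treatment. The melphalan-alone arrays carry the transfection tag none, whereas the protocol text can be read as giving them the control oligonucleotide. If the tag is right, melphalan alone against the control also compares no transfection with transfection, and the inhibitor comparison among melphalan arrays likewise. Neither the labels nor the protocols state separate cultures, and no condition is repeated. A p-value here is therefore set against how far the 8 arrays depart from the fitted terms. That departure holds inhibitor responses that differ by line or by melphalan, where the fit has no such term. If the tag is right, it can hold part of any transfection effect as well. The rest can be technical variation alone.

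Of 12 plasma cell markers, 7 lay above the median gene on every array, and the mean log2 signal of the 12 was 9.50 to 10.11. CD27, at 5.83 to 6.41, and CD79A, at 6.18 to 7.24, lay below the median gene on every array. With melphalan in U266/s, 5 of the 12 fell (41.7%, against 24.9% of all genes) and 2 rose (16.7%, against 18.4%). The mean over 13 myeloid markers was 5.98 to 6.15 in U266/LR7, 5.76 to 5.95 in U266/s without melphalan and 6.48 to 6.52 with it, and 6 of the 13 rose there (46.2%, against 18.4% of all genes). The largest of these rises were those of CD68 (1.88 ± 0.17 log2 units), FCER1G (1.88 ± 0.15) and CD14 (1.47 ± 0.14), with adjusted p = 1.17e-05, 5.53e-06 and 1.76e-05 by limma. The myeloid genes LYZ, FCGR3A, CD163 and AIF1 lay below the lower quartile of genes on every array, at 4.08 to 5.31, although AIF1 was among the 6 that rose. Of 12 T and NK cell markers, 3 rose with melphalan in U266/s (25%, against 18.4%), a count of 0 to 3 with single arrays left out. Of 12 stromal and epithelial markers, EPCAM alone was called there, at -1.77 ± 0.20 log2 units (8.33% lower, against 24.9%). In bulk RNA, fewer cells of a type and less RNA per cell cannot be told apart, and the part of these markers in the annexin values was not tested. The interquartile range of log2 signal over genes was 3.08 to 3.31 on 6 arrays, but narrower on the parental melphalan arrays, at 2.75 with the drug alone and 2.80 with the drug and inhibitors. Of the 4604 genes brighter on average than the upper quartile, 42.7% fell with melphalan in U266/s, and their median response was -0.26 log2 units. ANXA2, ANXA5, ANXA6, ANXA7 and ANXA11 are among those 4604 genes. ANXA1 is not, since the average covers both lines, but on the U266/s arrays it was brighter than 94.0% to 98.7% of genes. The part of the narrower range in the values of ANXA1 and those members was not tested.

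The start of ANXA1 differs in base composition from that of its relatives, and the following RefSeq sequences (GRCh38.p14) show it. All 8 members matched the RefSeq promoter table, with 12 entries, and each line gives the 150 bases before the annotated start, 5′ to 3′ on the gene's strand, with CG pairs and any TATAAA near the start in capitals.
ANXA1, chr9:73151715-73151864, plus strand: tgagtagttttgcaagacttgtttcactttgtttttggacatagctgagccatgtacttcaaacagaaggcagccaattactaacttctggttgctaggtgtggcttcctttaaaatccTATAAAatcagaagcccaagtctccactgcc
ANXA2, chr15:60397987-60398136, minus strand: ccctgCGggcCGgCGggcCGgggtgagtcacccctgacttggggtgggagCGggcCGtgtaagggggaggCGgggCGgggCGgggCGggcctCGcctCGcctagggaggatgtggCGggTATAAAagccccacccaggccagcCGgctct
ANXA4, chr2:69643658-69643807, plus strand: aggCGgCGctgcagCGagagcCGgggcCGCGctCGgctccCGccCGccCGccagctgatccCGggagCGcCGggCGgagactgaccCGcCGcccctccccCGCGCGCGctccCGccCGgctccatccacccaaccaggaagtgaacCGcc

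Over 250 bases before the start, ANXA1 held 0 CG pairs and a GC content of 38.4%, while the other 11 member entries held 5 to 36 CG pairs and 50.0% to 78.8% GC. A window without any CG pair was found in 6.06% of all 35116 promoters, whose medians were 11 CG pairs and 58.0% GC. TATAAA, searched on the gene's strand within 60 bases before the start, was found in ANXA1 and ANXA2, and in 2.78% of all promoters. CCAAT, searched on both strands over 250 bases, was found in 4 of the 12 member entries, of ANXA1, ANXA6, ANXA7 and ANXA11, and in 32.01% of all promoters. GGGCGG, searched likewise, was not found in ANXA1 but in 7 of the 12 member entries and in 42.64% of all promoters. These matches describe the letters in the window and nothing about which factor binds there.

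ANXA1 encodes the glucocorticoid-induced annexin whose N-terminal peptide signals through formyl peptide receptors to limit inflammation. Its gene lies on chromosome 9 from 73151865 to 73170393 (GRCh38.p14). The log2 signal in U266/s was 12.17 in the control, 10.68 with melphalan, 11.89 with inhibitors and 11.23 with both. In U266/LR7 it was 4.58, 4.86, 5.45 and 5.14 in the same order. Every U266/LR7 array thus lay below every U266/s array, and all 4 U266/LR7 values were under 5.96, the lower quartile of gene means, where array signal says little about whether any transcript was present. The log2 difference of U266/LR7 minus U266/s was -7.59 in the control, -5.82 with melphalan, -6.44 with inhibitors and -6.09 with both. Their mean was -6.49 ± 0.78 (SD over 4 matched conditions). No linear fold is given, since its size would rest on signals in that range.

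**Figure D1:**
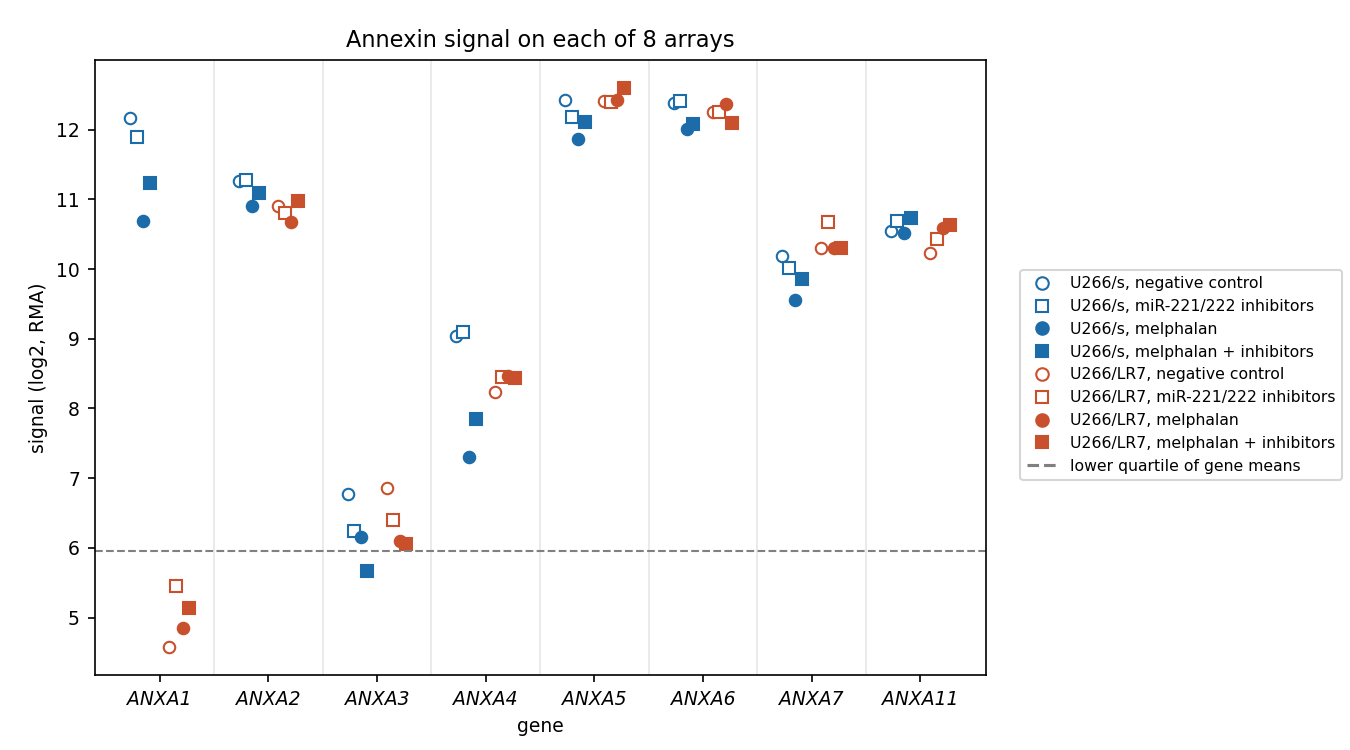
Log2 signal of each annexin gene on every array; blue marks U266/s and orange U266/LR7, filled symbols melphalan, squares miR-221/222 inhibitors, and the dashed line the lower quartile of gene means at 5.96. ANXA1 is the gene whose lines lie farthest apart, at 10.68 to 12.17 in U266/s and 4.58 to 5.45 in U266/LR7, and ANXA4 in U266/s drops from 9.04 and 9.09 to 7.30 and 7.84 with melphalan.

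The other members differed far less between the lines. The 4 arrays of U266/LR7 did not overlap those of U266/s for ANXA1 and ANXA7, 2 of 8 members or 25%, against 31.1% of all genes. A mean difference of at least 2-fold was reached by ANXA1 alone, 12.5% of members against 12.3% of all genes. ANXA1 enters both shares by the way the set was chosen, so neither share is a result about the family. The median absolute difference was 0.23 log2 units over the members and 0.29 over all genes. Among the 8 genes, a large line difference was seen in ANXA1 and in no other.

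ANXA2, on chromosome 15 from 60347151 to 60397986, encodes the plasminogen- and S100A10-binding annexin of the cell surface. Its log2 signal in U266/s was 11.27 in the control, 10.91 with melphalan, 11.28 with inhibitors and 11.08 with both, and in U266/LR7 10.90, 10.68, 10.81 and 10.98. The lines overlapped, since the U266/LR7 array with both agents lay above the U266/s melphalan array, although each matched difference was negative, from -0.47 to -0.11. The ANXA2 pseudogenes ANXA2P1, ANXA2P2 and ANXA2P3 are near copies, and how signal splits between them and ANXA2 is uncertain; their log2 signals spanned 7.44 to 8.005, 10.70 to 11.39 and 6.33 to 7.09.

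ANXA4, on chromosome 2 from 69643808 to 69827112, encodes an annexin of epithelial and secretory membranes that takes part in closing plasma membrane wounds. Its log2 signal in U266/s was 9.04 in the control, 7.30 with melphalan, 9.09 with inhibitors and 7.84 with both. In U266/LR7 it was 8.24, 8.47, 8.45 and 8.43. The line difference therefore changed sign with the drug: -0.80 and -0.64 without melphalan, 1.17 and 0.59 with it, for a mean of 0.08 ± 0.96 (SD over 4 matched conditions).

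ANXA5, on chromosome 4 from 121667946 to 121696980, gave log2 signals of 12.42, 11.86, 12.19 and 12.10 in U266/s (control, melphalan, inhibitors, both) and 12.41, 12.43, 12.40 and 12.60 in U266/LR7. Its lowest values were the U266/s arrays other than the control. ANXA6, on chromosome 5 from 151100706 to 151157779, an annexin of late endosomes and the plasma membrane, gave 12.38, 12.005, 12.41 and 12.08 in U266/s and 12.25, 12.37, 12.26 and 12.09 in U266/LR7. Its lines overlapped over a total range of 0.41 log2 units.

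ANXA3, on chromosome 4 from 78551770 to 78610447, an annexin best known from neutrophils, gave log2 signals of 6.77, 6.16, 6.24 and 5.67 in U266/s (control, melphalan, inhibitors, both) and 6.86, 6.10, 6.40 and 6.06 in U266/LR7. The control was the highest array in both lines and the array with both agents the lowest. All its values lay within 1 log2 unit of the lower quartile of gene means, so its differences rest on a dim signal.

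ANXA7 and ANXA11 carry long N-terminal tails that bind sorcin and ALG-2, and both lie on chromosome 10, ANXA7 from 73375101 to 73414058 and ANXA11 from 80150889 to 80205808. ANXA7 gave log2 signals of 10.18, 9.56, 10.02 and 9.86 in U266/s and 10.31, 10.31, 10.68 and 10.30 in U266/LR7. All U266/LR7 arrays lay above all U266/s arrays, with matched differences of 0.12 to 0.75 and a mean of 0.49. ANXA11 gave 10.55, 10.52, 10.69 and 10.74 in U266/s and 10.23, 10.58, 10.43 and 10.63 in U266/LR7, and its lines overlapped. With 1 array per condition, the order of conditions within a line has no spread of its own for any member.

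**Figure D2:**
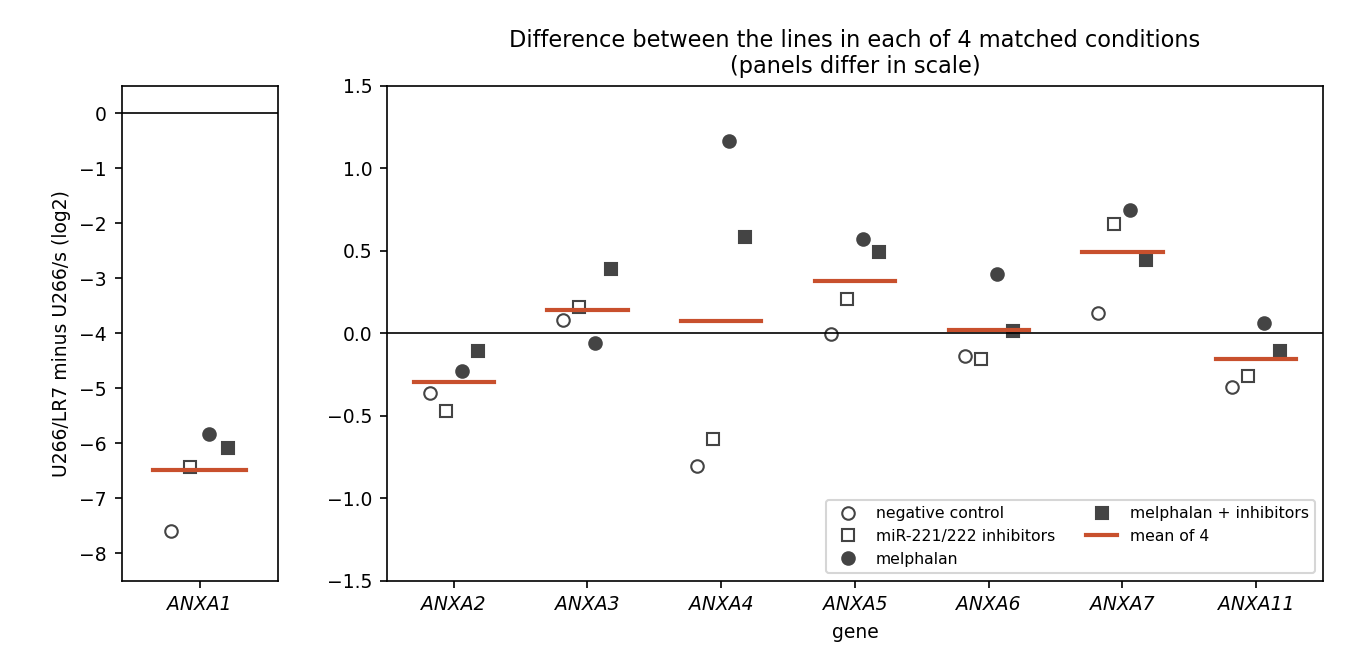
Log2 signal in U266/LR7 minus U266/s in the 4 matched conditions for each annexin gene, with the mean of the 4 as a bar; the left panel holds ANXA1 on its own scale. ANXA1 lies between -7.59 and -5.82, and ANXA4 is negative without melphalan and positive with it.

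Melphalan lowered several annexin genes in the parental line. Of the 8 members, ANXA1, ANXA3, ANXA4 and ANXA6 fell in U266/s and 0 rose (limma over all 8 arrays, Benjamini-Hochberg adjusted p under 0.05). Calls were common in this comparison, at 43.4% of all genes, 18.4% higher and 24.9% lower. The median response was -0.37 log2 units over the members, 0.08 over all genes and -0.26 over the bright genes described above. Of the 5 members among those bright genes, 1 fell (ANXA6), against 42.7% of the bright genes. ANXA1, outside that set by its mean over both lines but bright in U266/s, fell as well.

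ANXA4 fell by 1.50 ± 0.17 log2 units (SE; adjusted p = 3.64e-05 by limma), which is 2.82-fold. The 2 pairs of arrays gave -1.75 without and -1.25 with the inhibitors. ANXA1 fell by 1.07 ± 0.22 (adjusted p = 0.0027), with pairs at -1.48 and -0.66, and at its lowest, 10.68, it still lay over 5 log2 units above any U266/LR7 array. ANXA3 fell by 0.59 ± 0.15 (adjusted p = 0.00833) and ANXA6 by 0.35 ± 0.11 (adjusted p = 0.0238), each in both pairs. Values for ANXA5, ANXA7 and ANXA2 were -0.32 ± 0.12, -0.39 ± 0.16 and -0.27 ± 0.13 (adjusted p = 0.0524, 0.0613 and 0.110 by limma), and ANXA11 gave 0.01 ± 0.12. Without the U266/s control array 1 member passed, ANXA4, while ANXA1 gave -0.65 (adjusted p = 0.0601), ANXA3 -0.49 (0.0947) and ANXA6 -0.40 (0.0994); ANXA3 also missed without the U266/s array with both agents (-0.52, adjusted p = 0.0661), and ANXA6 without the U266/s melphalan array (-0.28, 0.176) or inhibitor array (-0.31, 0.145). ANXA3 also missed with transfection as 3 levels (-0.48, adjusted p = 0.0704), and ANXA6 without the variance trend (0.0606) or with all clusters tested (0.0511). With each array centred on its median, 7 members were called, all lower. Calls were also gained, for ANXA5 in 8 of 17 alternatives, for ANXA7 in 5 of 17 and for ANXA2 in 1 of 17.

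In U266/LR7, 0 of 8 members passed in limma's test, and 2 had an unadjusted p under 0.05, where 6.62% of all genes passed, 3.02% higher and 3.61% lower. ANXA3 was nearest, at -0.55 ± 0.15 log2 units (adjusted p = 0.0550), close to its value in U266/s. ANXA11 gave 0.28 ± 0.12 (adjusted p = 0.241) and ANXA4 0.10 ± 0.17, with a 95% interval of -0.26 to 0.47. ANXA1 gave -0.02 ± 0.22, with an interval of -0.51 to 0.47, from arrays close to the bottom of the signal range where a further fall could hardly be seen. The median over the members was -0.02 and over all genes 0.05.

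**Figure D3:**
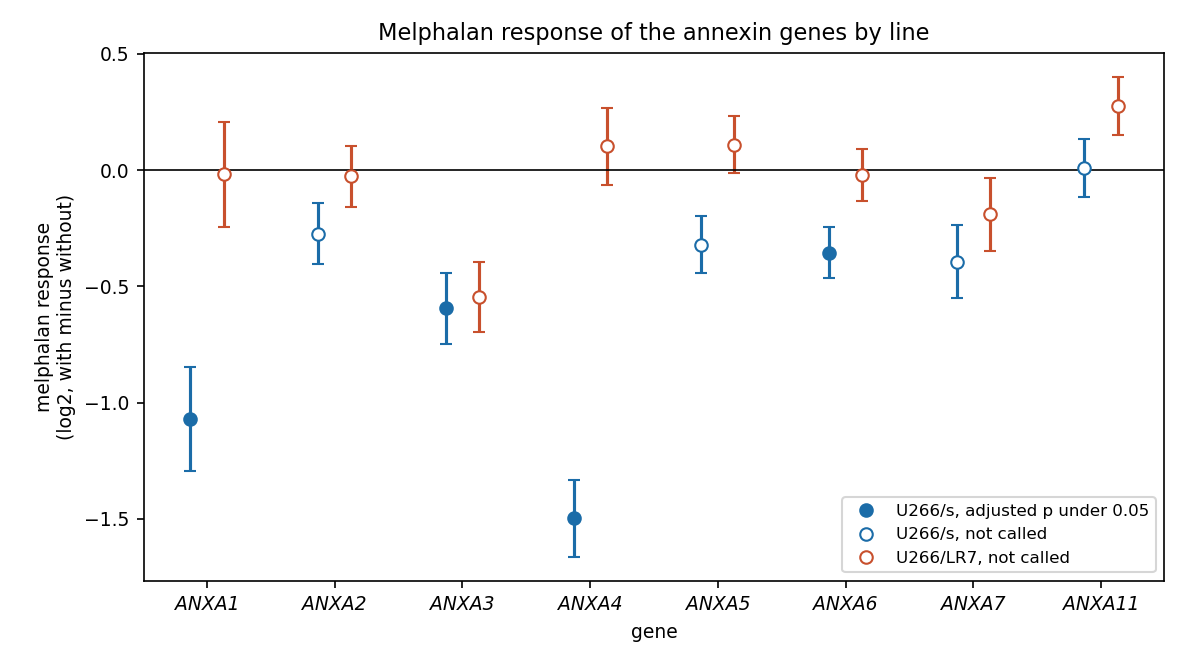
Melphalan response (log2, arrays with minus arrays without the drug) of each annexin gene with its standard error from the limma fit, blue for U266/s and orange for U266/LR7, filled where the adjusted p was under 0.05. ANXA4 at -1.50 and ANXA1 at -1.07 in U266/s lie farthest from 0, and no U266/LR7 value is filled.

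Whether the response differed between the lines was tested as the interaction, the response in U266/LR7 minus that in U266/s. It passed for ANXA4 at 1.60 ± 0.23 log2 units (adjusted p = 0.000743 by limma) and ANXA1 at 1.05 ± 0.32 (adjusted p = 0.0327), 2 of 8 members, both higher. The U266/LR7 arrays of ANXA1 were too dim to show a fall, so its value largely repeats the fall in U266/s. Among all genes 23.9% passed, 17.9% higher and 5.99% lower. ANXA3 gave 0.05 ± 0.21, with a 95% interval of -0.42 to 0.52. ANXA5 gave 0.43 ± 0.17 (adjusted p = 0.0969) and ANXA6 0.33 ± 0.16 (adjusted p = 0.154), so that the absence of a call in U266/LR7 does not show a different response for them. The ANXA5 interaction passed in 3 of 17 alternatives: quantile normalization (0.51, adjusted p = 0.0335), transfection as 3 levels (0.43, 0.0386) and without the U266/s inhibitor array (0.61, 0.0439). The median was 0.30 over the members, -0.01 over all genes and 0.33 over the bright genes.

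The ANXA4 difference passed in each of 17 alternative analyses, at 1.36 to 1.83 log2 units. That of ANXA1 passed in 10 of 17; it missed with cyclic loess (adjusted p = 0.0607), with all clusters tested (0.0836), and without the U266/LR7 control (0.71, 0.114), melphalan (1.002, 0.108) or combined array (1.10, 0.0667) or the U266/s control (0.63, 0.182) or melphalan array (0.92, 0.126).

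The microRNA inhibitors were the study's other agent. The mature sequences of the targets, from RefSeq, share the seed (bases 2 to 8, in capitals) by which they recognise transcripts.
hsa-miR-221-3p: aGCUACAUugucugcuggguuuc
hsa-miR-222-3p: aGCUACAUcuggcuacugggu

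Inhibitors called 0 of 8 members in limma's test, where 0.0434% of all genes passed. Unadjusted p was under 0.05 for 2 members: ANXA3, at -0.38 ± 0.11 log2 units (adjusted p = 0.535), and ANXA1, at 0.36 ± 0.16 (adjusted p = 0.781). ANXA3 was lower with inhibitors in all 4 matched pairs, by 0.04 to 0.53. The ANXA1 pairs ran from -0.28 in U266/s without melphalan to 0.88 in U266/LR7 without it, where the signal is dim. The other 6 members lay between -0.04 and 0.19, each with a 95% interval that included 0. The inhibitor response by line called 0 of 8 members and 0% of all genes, with 0 members and 1006 genes at an unadjusted p under 0.05. The inhibitor response by melphalan called 0 of 8 members and 0.0217% of all genes, and 1 member had an unadjusted p under 0.05, ANXA5 at 0.33 ± 0.14.

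Across the 4 U266/s arrays, ANXA1, ANXA2, ANXA4, ANXA5, ANXA6 and ANXA7 moved together, with Pearson r between 0.83 and 0.99 for every pair, whereas ANXA11 gave 0.09 to 0.31 with these 6. In U266/LR7 the same 15 pairs ran from -0.94 to 0.79. These are descriptions over 4 arrays that share melphalan and normalization. Over all 8 arrays, the genes most like ANXA1 among 740 genes with an SD of at least 1 were STAT6 (r = 0.997), LAPTM5 (0.997), SEPTIN9 (0.996), ABLIM1 (0.996) and IGKC (0.996). The mean log2 signal of each was higher in U266/s, for LAPTM5 at 10.89 against 6.37 in U266/LR7 and for IGKC at 12.84 against 8.81, so that the correlations over 8 arrays mainly repeat the gap between the lines. Nearest to ANXA2 among 17725 genes were GREB1L (0.987), GNA14 (0.966) and RPL10 (0.957). Nearest to ANXA3 among 13891 genes were VRK1 (0.971), H4C16 (0.956) and ZFP36L1 (0.951). These are the highest of that many values over 8 arrays. GREB1L and GNA14 had mean signals under 5.96, the lower quartile of gene means, in both lines.

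Of 9 further annexin genes, receptors and pseudogenes, 7 were measured, and 2 rose with melphalan in U266/s (28.6%, against 18.4% of all genes) while 0 passed in U266/LR7. Where ANXA1, ANXA3, ANXA4 and ANXA6 fell in U266/s, ANXA9, an annexin whose core has lost canonical calcium-binding sites, rose. Its log2 signal in U266/s was 7.77 in the control, 9.03 with melphalan, 7.83 with inhibitors and 8.87 with both, and in U266/LR7 9.33, 9.71, 9.42 and 9.67. It rose by 1.15 ± 0.14 log2 units in U266/s (adjusted p = 7.59e-05 by limma), and the lines did not overlap, with U266/LR7 higher by 1.15 on average. Its interaction was -0.83 ± 0.20 (adjusted p = 0.0110), which missed without the U266/s control (-0.79, 0.0688) or melphalan array (-0.74, 0.0562) or the U266/LR7 melphalan (-0.85, 0.0607) or combined array (-0.82, 0.0633). ANXA2R, a putative annexin A2 receptor, rose by 0.47 ± 0.14 in U266/s (adjusted p = 0.0200) and missed in 8 of 16 alternatives, including every other scaling (0.20 to 0.32), and without the U266/s melphalan (0.50, adjusted p = 0.0714), inhibitor (0.31, 0.159) or combined array (0.45, 0.0915). ANXA10 and ANXA13 stayed between 4.17 and 4.97 on all arrays, below the lower quartile of gene means.

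S100 proteins are the small calcium sensors that pair with annexin tails. Of 18 measured, 5 rose and 1 fell with melphalan in U266/s, 0 passed in U266/LR7, and 1 differed between the lines in each direction; without the U266/s control, 2 rose. The 6 of 18 called in U266/s make 33.3%, below the 43.4% of all genes, and the list's median response was 0.23 log2 units against 0.08 over all genes. S100A10, the obligate partner of annexin A2 in the plasminogen-binding complex, gave log2 signals of 12.02, 10.71, 11.88 and 11.28 in U266/s (control, melphalan, inhibitors, both) and 11.05, 11.42, 11.48 and 11.70 in U266/LR7. It was the 1 S100 gene that fell, by 0.96 ± 0.16 log2 units (adjusted p = 0.000492 by limma), and its interaction was 1.25 ± 0.22 (adjusted p = 0.00192). Its partner ANXA2, at -0.27, was not called.

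S100A11, the partner of annexin A1, gave log2 signals of 12.58, 12.07, 12.51 and 12.40 in U266/s and 10.13, 10.04, 10.14 and 10.55 in U266/LR7. It was lower in U266/LR7 by 2.18 ± 0.28 (SD over 4 matched conditions). Its lines did not overlap, as for 31.1% of all genes. ANXA1 was lower in U266/LR7 too but was put forward for that difference, so the pair is no result about joint loss. S100A6, which binds several annexins, gave 7.60, 8.12, 7.81 and 8.80 in U266/s and 7.29, 7.08, 7.25 and 7.28 in U266/LR7. It rose by 0.76 ± 0.17 in U266/s (adjusted p = 0.00459 by limma), and that call was lost without the U266/s array with both agents (0.48, adjusted p = 0.0714). S100A4 rose by 0.91 ± 0.17 (adjusted p = 0.00106 by limma).

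**Figure D4:**
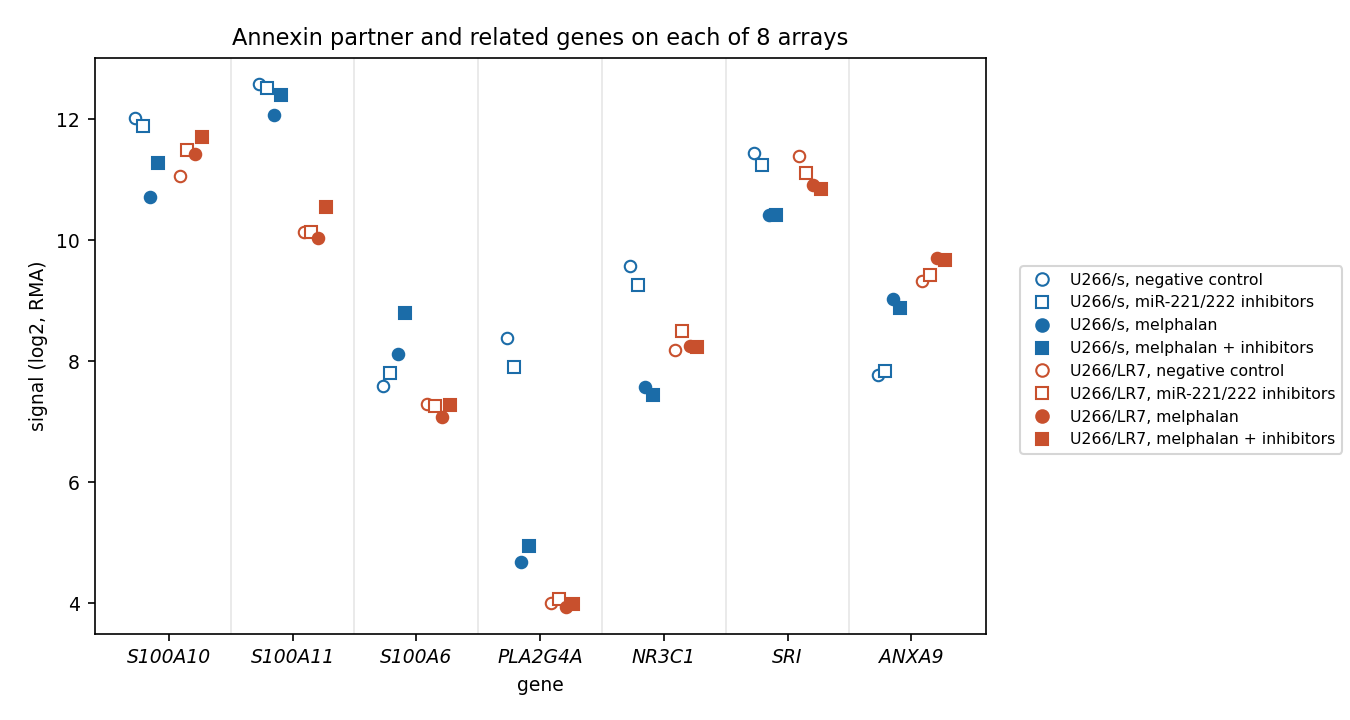
Log2 signal of annexin partners and related genes on every array, with symbols as for the annexin genes. S100A11 is lower on all U266/LR7 arrays, and S100A10, PLA2G4A, NR3C1 and SRI drop with melphalan in U266/s while ANXA9 and S100A6 rise there.

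The formyl peptide receptors, through which annexin A1 acts on leukocytes, were dim throughout: FPR1, FPR2 and FPR3 gave log2 signals between 4.09 and 5.49. PLA2G4A, the cytosolic phospholipase A2 whose activity annexins can restrain, gave 8.39, 4.69, 7.91 and 4.95 in U266/s and 4.01, 3.93, 4.07 and 3.99 in U266/LR7. It fell by 3.33 ± 0.17 log2 units in U266/s (adjusted p = 1.37e-06 by limma) to near the level of U266/LR7, whose arrays were too dim to show a fall. ALOX5AP, which presents arachidonate to 5-lipoxygenase, rose by 0.62 ± 0.15 in U266/s (adjusted p = 0.0056 by limma). It fell by 0.78 ± 0.15 in U266/LR7 (adjusted p = 0.0102), and its interaction was -1.40 ± 0.21 (adjusted p = 0.000794). The fall of ALOX5AP missed with transfection as 3 levels (-0.72, adjusted p = 0.0645) and with all clusters tested (adjusted p = 0.0588). Its rise missed without the U266/s control (0.60, adjusted p = 0.0517) or melphalan array (0.55, 0.0570), and its fall without the U266/LR7 melphalan array (-0.62, 0.207). Of the 11 receptor, phospholipase and eicosanoid genes measured, 4 rose and 1 fell in U266/s and 0 rose and 1 fell in U266/LR7; the 4 rises ranged from 0 to 4 when single arrays were left out. The share called in U266/s, 45.5%, was near the 43.4% of all genes, so the count is no result about this list.

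Glucocorticoids induce ANXA1 in many cells, and their receptor NR3C1 gave log2 signals of 9.58, 7.57, 9.27 and 7.45 in U266/s and 8.18, 8.25, 8.50 and 8.24 in U266/LR7. It fell by 1.91 ± 0.17 with melphalan in U266/s (adjusted p = 9.33e-06 by limma), with an interaction of 1.82 ± 0.24 (adjusted p = 0.000409). Of 9 glucocorticoid response genes, 2 rose and 1 fell in U266/s, the 1 being NR3C1, and 3 rose and 0 fell in U266/LR7; left-out single arrays took both counts of rises down to 0. The 3 of 9 called in each line make 33.3%, against 43.4% of all genes in U266/s and 6.62% in U266/LR7. TSC22D3, the glucocorticoid-induced leucine zipper, rose by 1.26 ± 0.25 in U266/LR7 (adjusted p = 0.0134), a call lost without the U266/LR7 control (0.78, 0.0512) or combined array (1.10, 0.127), and over the 4 conditions it was lower in U266/LR7 by 1.41 ± 0.85 (SD) with no overlap.

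ALG-2, sorcin and the ESCRT machinery, which buds and seals membranes, hold the partners of ANXA7 and ANXA11. Of 9 genes measured, 6 fell and 0 rose in U266/s (3 without the U266/s control or melphalan array, 7 at most with another array left out), and 1 rose in U266/LR7. The falls make 66.7% of the list, against 24.9% of all genes and 42.7% of the bright genes, and the list's median response was -0.55 log2 units. SRI, sorcin itself, gave log2 signals of 11.43, 10.42, 11.24 and 10.41 in U266/s and 11.40, 10.91, 11.12 and 10.85 in U266/LR7, and fell by 0.92 ± 0.12 in U266/s (adjusted p = 0.000142 by limma). VPS4B, an ATPase that disassembles ESCRT filaments, fell by 1.14 ± 0.16 (adjusted p = 0.000155), and SEC31A, the coat protein that ALG-2 binds at exit sites of the endoplasmic reticulum, by 0.83 ± 0.12 (adjusted p = 0.000302). PDCD6, which encodes ALG-2, had no cluster with a single symbol and was not analysed here.

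Scramblases and flippases expose or hide phosphatidylserine, the ligand of annexins. Of 14 scramblase and flippase genes measured, 5 fell and 0 rose in U266/s, while 2 fell and 1 rose in U266/LR7; left-out single arrays gave 3 to 6 falls in U266/s, the 3 without the U266/s control, and 0 to 4 in U266/LR7. The share called in U266/s was 35.7%, below the 43.4% of all genes, with 35.7% lower against 24.9%. In U266/LR7 the share called was 21.4%, above the 6.62% of all genes, with 14.3% lower against 3.61% and 7.14% higher against 3.02%. PLSCR1, a phospholipid scramblase, fell by 1.16 ± 0.15 log2 units in U266/s (adjusted p = 9.5e-05 by limma) and ATP8A1, a flippase, by 1.10 ± 0.15 (adjusted p = 0.000156). In U266/LR7 PLSCR1 gave -0.53 ± 0.15 and was not called (adjusted p = 0.0588 by limma). ANO6, the calcium-activated scramblase, fell in both lines, by 0.96 ± 0.15 in U266/s (adjusted p = 0.000431) and by 1.10 ± 0.15 in U266/LR7 (adjusted p = 0.00209), and the latter missed without the combined U266/LR7 array (-0.89, 0.0504). XKR8, the caspase-activated scramblase, rose by 0.84 ± 0.15 in U266/LR7 (adjusted p = 0.00741), a call lost without either U266/LR7 melphalan array (0.74, 0.142 and 0.95, 0.0566).

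Of 10 membrane repair genes, MYOF was the 1 that fell in U266/s, so 10% of the list was called against 43.4% of all genes. MYOF, a ferlin that mends membranes, fell by 1.56 ± 0.20 log2 units (adjusted p = 8.09e-05 by limma), from 8.31 and 7.35 without melphalan to 6.39 and 6.15 with it, while U266/LR7 gave 5.15 to 5.46, too dim on all its arrays to show a fall. Of 7 plasminogen activation genes, 1 rose and 2 fell in U266/s and 0 passed in U266/LR7, and the inhibitor of plasminogen activators SERPINE2 fell by 1.08 ± 0.16 (adjusted p = 0.000237); without the U266/s control or melphalan array 1 of the 2 fell. The 3 of 7 called make 42.9%, near the 43.4% of all genes.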

How the data were processed

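The values deposited are log2 RMA signals, which the authors computed in Affymetrix Expression Console according to the submitters' processing notes. RMA corrects background, quantile-normalizes arrays and summarises probes; software versions and genome build: not given in the sources used here. RMA shrinks differences of dim genes. The table held 33297 transcript clusters and 0 columns of no sample; 19460 clusters had 1 symbol in the platform annotation, 1754 several and 12083 none, and 19429 of the first matched RefSeq by gene ID. The brightest cluster stood for a gene (769 genes had more than 1).

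Models were fitted with limma 3.58.1 (R 4.3.3) on the log2 values of 18417 genes and 8 arrays, with moderated variances that follow signal intensity, and calls at a Benjamini-Hochberg adjusted p under 0.05. Terms were line, melphalan, their interaction and inhibitors (3 residual degrees of freedom); each inhibitor interaction added 1 term (2). The scripts were tested on simulated data. The number of arrays limits the precision.

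The members and gene lists were chosen with earlier results of these data known. Named genes are all members, the measured further annexins, fixed partners, up to 3 called genes per list by size of fold, and the genes most like ANXA1 (5), ANXA2 and ANXA3 (3 each). Alternatives changed scaling, filter, variance trend, gene summary, features, covariates or left out 1 array. ANXA8, ANXA8L1 and PDCD6 had no cluster with a single symbol.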

Additional observations from a re-analysis of the deposited data

Results flagged for a closer look

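These results are flagged because the melphalan response differed between the lines by the test of the difference itself (limma's interaction over 8 arrays, U266/LR7 minus U266/s in log2 units). Of all genes 23.9% passed that test, so passing it does not set a gene apart. Among the annexin genes these were ANXA4 at 1.60 and ANXA1 at 1.05; on all 4 U266/LR7 arrays ANXA1 lay below 5.96, the lower quartile of gene means, where a fall could hardly be seen. Among related genes the same holds for PLA2G4A at 3.25, MYOF at 1.75 and ATP8A1 at 1.13, so these 4 values largely repeat the fall in U266/s. NR3C1 gave 1.82, VPS4B 1.35, S100A10 1.25, TSC22D3 1.11, SERPINE2 1.01, SEC31A 0.85, XKR8 0.83, PLSCR1 0.64 and SRI 0.54. Among genes with a negative difference, ALOX5AP gave -1.40, CD68 -1.39, FCER1G -1.34, CD14 -0.92, S100A6 -0.85 and ANXA9 -0.83. Further genes of the lists passed and are not given here, among them SDC1, PRDM1, MPO and EPCAM.

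Of 17 alternatives, the calls of SRI and PLSCR1 were lost in 12 each, those of TSC22D3 and S100A6 in 8 each, that of ANXA1 in 7, those of ANXA9 and XKR8 in 4 each and that of SERPINE2 in 2; that of CD14 was lost in 1 of 16. Over them, the adjusted p of TSC22D3 reached 0.236, that of PLSCR1 0.231, that of SRI 0.191, that of XKR8 0.116, that of S100A6 0.116, that of ANXA1 0.182, that of ANXA9 0.0688, that of CD14 0.0662 and that of SERPINE2 0.0538, while PLA2G4A, NR3C1, MYOF, VPS4B, S100A10, ATP8A1, SEC31A, ALOX5AP, CD68, FCER1G and ANXA4 passed in each alternative that gave a value.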

How the results depend on the processing

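The fall of ANXA4 in U266/s and its line difference passed in all 17 alternatives (-1.73 to -1.26 and 1.36 to 1.83 log2 units); the fall of ANXA1 passed in 16, that of ANXA3 in 13 of 16 and that of ANXA6 in 12 of 17, while ANXA5 gained a call in 8, ANXA7 in 5 and ANXA2 in 1. Members called in U266/s numbered 7 with median centring and 1 to 6 with single arrays left out; members whose response differed between the lines numbered 1 with cyclic loess, 1 with all clusters, and 1 to 3 with single arrays left out. No member was called in U266/LR7 or for the inhibitors in any alternative. Median centring, quantile normalization and cyclic loess moved the median response of all genes in U266/s by -0.15, -0.10 and -0.16, and the higher share of calls from 42.5% to 23.6%, 37.5% and 29.9%.

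Signs turned only for uncalled values. ANXA11 in U266/s gave -0.14 with median centring, -0.0141 with transfection as 3 levels and -0.0327 to 0.0497 with single arrays left out. In U266/LR7, quantile normalization gave 0.0153 for ANXA1 and 0.00642 for ANXA6, and 3 transfection levels gave 0.0395 for ANXA1 and 0.11 for ANXA2. Left-out arrays there gave -0.36 to 0.33 for ANXA1, -0.16 to 0.11 for ANXA2, -0.0498 to 0.25 for ANXA4 and -0.18 to 0.13 for ANXA6. The ANXA3 line difference in response ran from -0.18 to 0.27. For the inhibitors, 3 transfection levels gave -0.0413 for ANXA2, -0.13 for ANXA5 and 0.0193 for ANXA6, and left-out arrays -0.0283 to 0.13 for ANXA5 and -0.0772 to 0.0375 for ANXA6. The cause was not tested. Of 72 list counts, 39 moved by over 1.5 times with at least 1 array left out, and 40 with at least 1 of the other alternatives. The count of genes called in U266/s ran from 4258 to 8746, and 11636 of 33297 clusters passed when all clusters were tested. Signal near the lower quartile limits what can be said of ANXA3, and of ANXA1 in U266/LR7. With 1 array per condition and no replicate number, arrays could be matched by condition only, not by culture.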
